A study of Mus musculus with 6 samples.

Results

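Guanylate-binding proteins (GBPs) and immunity-related GTPases (IRGs) were followed across 3 arrays of wild-type mouse pro-B cells and 3 arrays of pro-B cells labelled HDAC7 deficient. Of 9 genes named for this account (Gbp2, Gbp3, Gbp6, Gbp7, Gbp8, Gbp9, Igtp, Irgm1 and Iigp1), 7 were read by at least 1 probe set annotated with a single gene symbol, through 10 probe sets in all, out of 17097 genes and 45037 probe sets. Gbp6 and Gbp9 had no such probe set under the annotation used and were not analysed here. The genes were chosen by family membership with earlier results of these arrays in view, and their probe sets were selected on level. A gene with several probe sets was represented by the one with the highest mean over the 6 arrays, and the others are given beside it.

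Pro-B cells are bone marrow cells on their way to becoming B cells. They were sorted as B220+CD43+IgM- cells from wild-type mice and from HDAC7 conditional mice. The deacetylase HDAC7 belongs to class IIa, whose members act as corepressors in the nucleus, and the question was whether pro-B cells without it express genes that belong to other lineages. The recombinase that removes the conditional allele, the age, sex and strain of the mice, and whether an array holds cells of 1 mouse or of several were not stated in what was used here. The labels call the arrays biological triplicates, and p-values measure the spread between these arrays alone.

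GBPs and IRGs are interferon-inducible GTPases of cell-autonomous immunity, which assemble on vacuoles that hold intracellular bacteria and parasites. Interferon gamma induces them through its receptor, the kinases JAK1 and JAK2 and the factor IRF1, and type I interferon does so through a receptor of its own and the factor IRF9. Irgm1 and Igtp (also called Irgm3) belong to the regulatory IRGs, which stay on the cell's own membranes and hold effector IRGs such as Iigp1 (also called Irga6) inactive there.

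The promoters of these genes are known for the interferon-stimulated response element, and the promoter windows of the members in RefSeq's table were searched for its core, GAAANNGAAA, on both strands (read as TTTCNNTTTC on the other). A window runs from 250 bases before to 50 after a gene's start in build GRCm38.p6. The table held 5 of the 9 genes (Gbp2, Gbp3, Gbp7, Igtp and Irgm1), and each had the core in at least 1 window, as did 3.99% of the 27025 genes in the table (3.44% of its 32851 windows). The stretches below show where the core, in capitals, lies in each, because they set the members that share this sequence beside the values in which they differ; they are written 5′ to 3′ along the gene's own strand and end at or before the start.

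Gbp2, chr3:142620579-142620638 (+): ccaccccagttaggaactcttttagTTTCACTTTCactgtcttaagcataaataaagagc
Gbp3, chr3:142559974-142560039 (+): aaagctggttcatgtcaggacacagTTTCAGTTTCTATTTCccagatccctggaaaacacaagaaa
Gbp7, chr3:142530258-142530317 (+): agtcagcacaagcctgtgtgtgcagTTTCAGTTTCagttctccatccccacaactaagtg
Irgm1, chr11:48871421-48871475 (-): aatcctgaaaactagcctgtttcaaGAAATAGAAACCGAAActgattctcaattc
Igtp, chr11:58199497-58199555 (+): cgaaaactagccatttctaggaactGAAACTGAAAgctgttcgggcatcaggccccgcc
Irgm2, chr11:58214888-58214947 (+): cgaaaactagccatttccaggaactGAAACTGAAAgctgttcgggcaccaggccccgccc

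The core lay at positions -59 to -50 in Gbp2, -53 to -44 in Gbp7 and -34 to -25 in Igtp, where -1 is the last base before the start. In Gbp3 and in Irgm1 a pair of overlapping cores covered -45 to -30 and -30 to -15. Irgm2, the neighbour of Igtp and no member here, is printed because its stretch matched that of Igtp at 57 of 59 positions (96.6%). The core of the interferon gamma activated site, TTCNNNGAA, which reads the same on both strands, was in the windows of Gbp7 and Igtp, and in those of 9.55% of all genes (8.3% of all windows), and its matches in those of Gbp7 and Igtp did not overlap the longer core. A match is a description of letters and not a bound site.

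The arrays themselves differed in ways that touch these genes. Wild-type replicate 3 stood apart, with correlations of 0.70 to 0.82 with the others across probe sets and an Actb signal at the 3′ end that exceeded the mid-transcript one by 1.69, against 0.16 to 0.26 elsewhere. Over the brightest 4275 genes it was under the mean of wild-type replicates 1 and 2 by a median difference of -1.37 on the log2 scale. The median change of these bright genes between the groups was 0.56 on the log2 scale, or 0.06 without that array. The 18 hybridisation spike-in probe sets averaged 10.23 for wild-type replicate 3, 9.99 and 10.78 for HDAC7-deficient replicates 2 and 3, and 8.64 to 9.17 on the other arrays. Xist divided the arrays in the same way (8.51 to 11.40 against 4.87 to 5.38), so that sex and hybridisation cannot be told apart. Hdac7 was 0.97 ± 0.59 (log2, SE) higher in the HDAC7-deficient group, with a limma adjusted p of 0.399, and by 0.31 without wild-type replicate 3. Which part of it was deleted is not stated, so it does not check the labels. The array carries 23 control probe sets of nonspecific sequence, which rise with their GC content, and the highest of them on an array read from 4.81 on wild-type replicate 3 to 6.81 on wild-type replicate 2. A signal is called above background here where it exceeds the highest of these controls on the same array. Of 12 early B markers 11 were measured, with mean log2 levels of 8.74 to 10.12 in wild type and 9.51 to 10.41 in HDAC7 deficient. Of these, 8 had a change above 0, against 48% of all genes. Their median change was 0.13, or -0.26 without wild-type replicate 3. Their mean level was 10.41 on HDAC7-deficient replicate 1, and 9.56 and 9.51 on replicates 2 and 3.

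Gbp8 was the member that stood highest on the arrays labelled HDAC7 deficient in relation to its spread, followed by Gbp3, whose difference was small. Irgm1 was higher too, by an amount that depended on wild-type replicate 3. Gbp2 was slightly lower on its main probe set but not on its other one. Gbp7 did not separate the groups, and Igtp and Iigp1 overlapped between them. Changes below are differences on the log2 scale, HDAC7 deficient minus wild type, with their standard error, from limma fitted to all 17097 genes, and group levels are means ± SD (n = 3 arrays each). No gene of the 17097 passed an adjusted p of 0.05 in limma (0%), and so no member did. At an unadjusted p under 0.05, which holds 602 genes higher and 1563 lower, 3 of the 7 members were higher (Gbp3, Gbp8 and Irgm1), against 3.52% of all genes, and none was lower, against 9.14%. The members were chosen with results of these arrays known, so these shares describe them and test nothing. In bulk samples such as these, fewer cells of a type and less RNA per cell cannot be told apart.

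**Figure D1:**
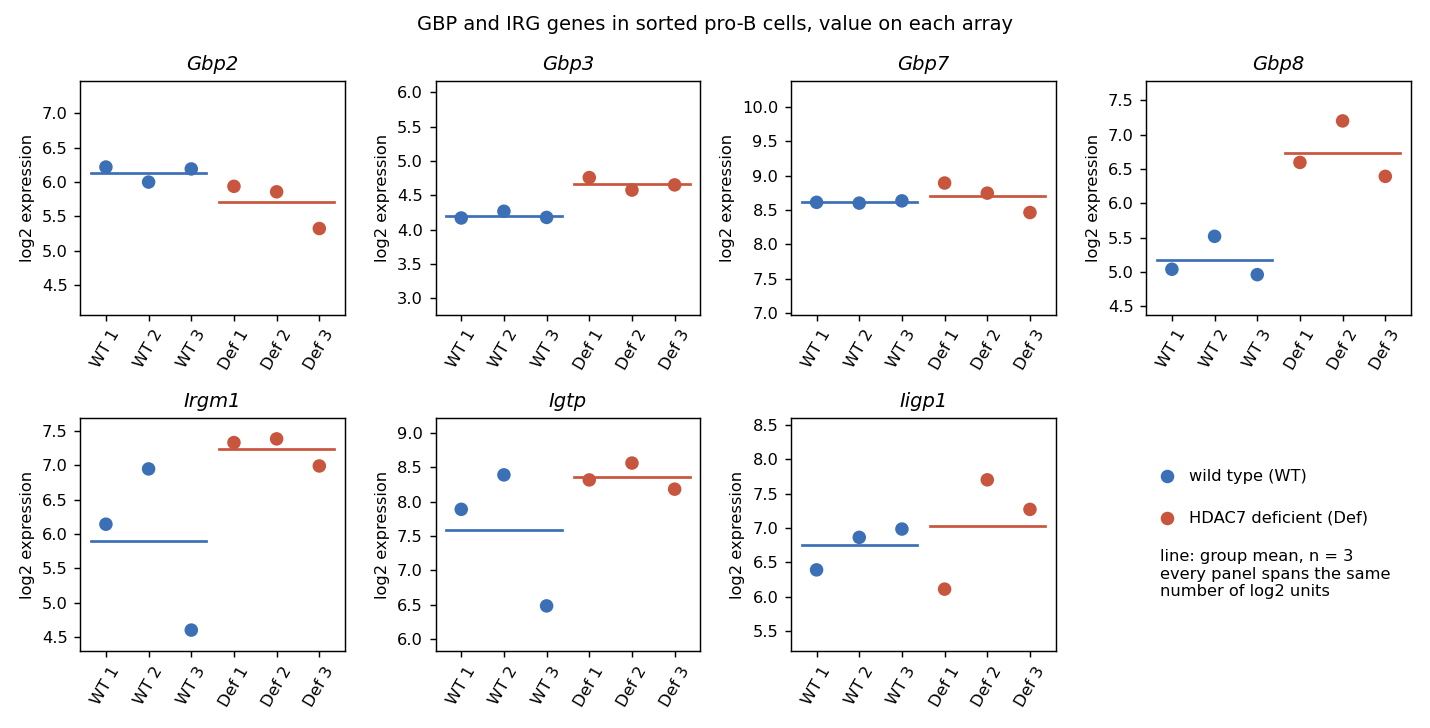
Log2 expression of the 7 measured genes on each array, from the probe set with the highest mean; blue points are wild type, red points HDAC7 deficient, and lines are group means (n = 3). Gbp8 and Gbp3 separate the groups, while wild-type replicate 3 is the lowest point for Irgm1 (4.60) and Igtp (6.48).

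Among the GBPs, Gbp8 was measured by 1 probe set (1418776_PM_at). It read 5.04, 5.52 and 4.96 on wild-type replicates 1, 2 and 3, and 6.60, 7.20 and 6.39 on HDAC7-deficient replicates 1, 2 and 3. All 3 HDAC7-deficient arrays lay above all 3 wild-type arrays, with a gap of 0.87 between the nearest pair. The group levels were 5.17 ± 0.30 and 6.73 ± 0.42, and the change of 1.56 ± 0.28 had a limma adjusted p of 0.377, with rank 32 of 17097 genes by p-value. The change was 1.45 without wild-type replicate 3, 1.32 within the arrays of low spike-in signal and 1.83 within those of high signal. Gbp8 was above the highest nonspecific control of its array on 3 of 3 HDAC7-deficient arrays, and on 1 of 3 wild-type arrays (replicate 3, where that control was lowest).

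Gbp3, a GBP whose gene lies in another cluster, was measured by 1418392_PM_a_at at the lowest values of the set. Wild-type replicates 1 to 3 read 4.17, 4.27 and 4.18, and HDAC7-deficient replicates 1 to 3 read 4.76, 4.58 and 4.65. The groups did not overlap and the arrays within each lay close together. The change of 0.46 ± 0.12 had a limma adjusted p of 0.377, and was 0.44 without wild-type replicate 3. Gbp3 lay under the highest nonspecific control of the array on all 6 arrays, so that its difference is one between signals that were not clearly above background. Its lowest value (4.17) was just above the highest reading of the GC 10 to 15 controls on any array (4.16). The GC content of its own probes was not compared.

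Gbp2, which in infected cells is recruited to vacuoles of Toxoplasma and to bacteria, was read by a pair of probe sets that disagreed. On 1418240_PM_at it read 6.22, 6.0 and 6.19 in wild type and 5.94, 5.86 and 5.32 in HDAC7 deficient. The groups did not overlap, with HDAC7 deficient lower by 0.06 at the nearest pair, as for 16.8% of all genes. The change was -0.43 ± 0.22, with a limma adjusted p of 0.381. On 1435906_PM_x_at the values were 5.49, 5.70 and 5.45 in wild type against 6.04, 5.89 and 5.51, where the groups overlapped and the change was 0.27 ± 0.21 (limma adjusted p over probe sets 0.451). The suffix x marks a probe set with probes that may also bind other sequences. The direction of Gbp2 thus turned with the probe set. The first was above its array's highest nonspecific control on 2 of 3 wild-type and 0 of 3 HDAC7-deficient arrays, and the second on 1 of 6 arrays.

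Gbp7, a GBP with a known role in the oxidative defence of phagocytes, lay above the highest nonspecific control of each array on all 6 arrays with its main probe set (1425156_PM_at), as did Igtp among the other members. Gbp7 read 8.61, 8.60 and 8.63 in wild type and 8.89, 8.75 and 8.46 in HDAC7 deficient. The wild-type arrays lay within the range of the HDAC7-deficient ones. The change was 0.09 ± 0.28, with a limma adjusted p of 0.839, and it was 0.29 within the low spike-in arrays, -0.03 within the high ones and -0.43 after quantile normalization. The other probe set (1434380_PM_at) read 5.25, 5.58 and 6.23 against 6.46, 5.98 and 5.70, a change of 0.36 ± 0.32, with overlap as well.

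**Figure D2:**
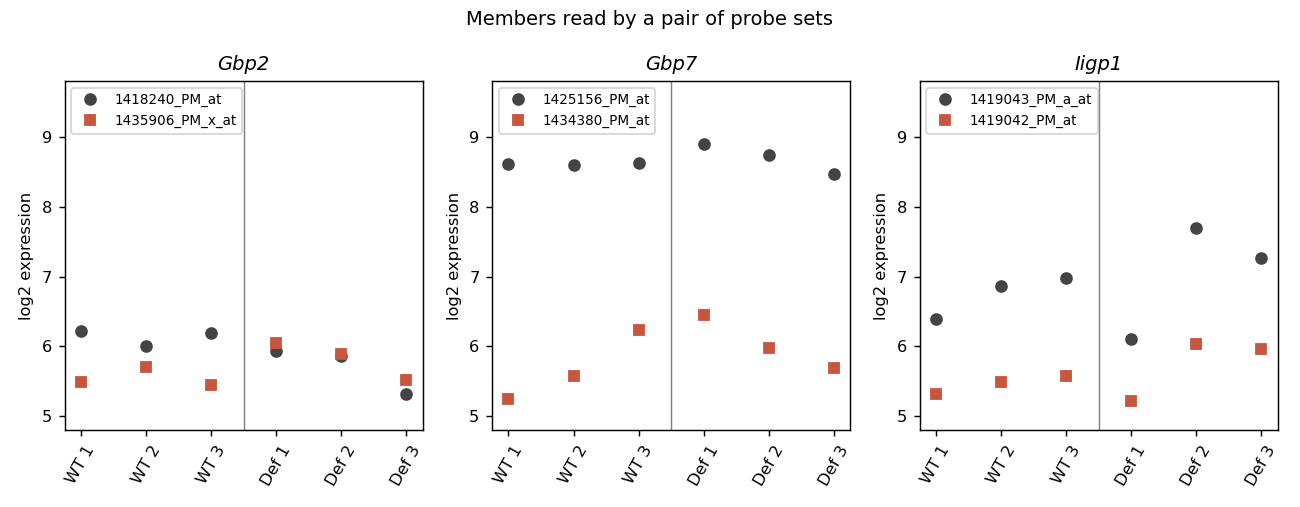
Log2 expression on each array for the 3 members read by more than 1 probe set; dark circles are the probe set used for the gene, red squares the other one. For Gbp2 the probe sets differ in direction (-0.43 and 0.27), and for Iigp1 both are lowest on HDAC7-deficient replicate 1 and highest on HDAC7-deficient replicate 2.

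Among the regulatory IRGs, Irgm1 (1418825_PM_at) is needed in mice for resistance to mycobacteria and for the survival of activated T cells exposed to interferon gamma. It read 6.14, 6.95 and 4.60 on wild-type replicates 1 to 3 and 7.33, 7.39 and 6.99 on HDAC7-deficient replicates 1 to 3. The groups did not overlap, but wild-type replicate 2 lay only 0.04 below the lowest HDAC7-deficient array. On wild-type replicate 3 the signal (4.60) was under the highest nonspecific control (4.81), and on the other 5 arrays it was above. The levels were 5.90 ± 1.19 and 7.24 ± 0.21, and the change of 1.34 ± 0.56 had a limma adjusted p of 0.377. Without wild-type replicate 3 the change was 0.69 ± 0.29 (limma adjusted p = 0.347). It was 0.79 within the low spike-in arrays and 2.59 within the high ones, where the wild-type side consists of replicate 3 alone.

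Igtp, the regulatory partner of Irgm1 that sits on the endoplasmic reticulum and lipid droplets, was measured by 1417141_PM_at. It read 7.89, 8.39 and 6.48 in wild type and 8.32, 8.56 and 8.18 in HDAC7 deficient. Wild-type replicate 2 lay within the range of the HDAC7-deficient arrays, and wild-type replicate 3 was the lowest array. The change of 0.77 ± 0.50 had a limma adjusted p of 0.410, and without wild-type replicate 3 it was 0.21 ± 0.24. Wild-type replicate 3 was the lowest of the 6 arrays for 3 of the 7 members (Gbp8, Irgm1 and Igtp), as it was for 37.8% of all genes.

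Iigp1, the effector IRG, followed another order. Its main probe set (1419043_PM_a_at) read 6.39, 6.86 and 6.99 on wild-type replicates 1 to 3, and 6.11, 7.70 and 7.27 on HDAC7-deficient replicates 1 to 3. HDAC7-deficient replicate 1 was the lowest of the 6 arrays and replicates 2 and 3 were the highest. The other probe set (1419042_PM_at) gave 5.32, 5.50 and 5.57 against 5.22, 6.04 and 5.96, the same order of these arrays. The changes were 0.28 ± 0.44 and 0.27 ± 0.26, with limma adjusted p-values of 0.663 over genes and 0.510 over probe sets. Within the low spike-in arrays the main probe set gave -0.52, and within the high ones 0.50. On HDAC7-deficient replicate 1 the main probe set (6.11) was under the highest nonspecific control (6.54). The other probe set was above that control on 2 of 6 arrays. A pattern in which HDAC7-deficient replicates 2 and 3 both lie above the other 4 arrays was found for 1 of the 7 members, and for 9.04% of all genes.

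**Figure D3:**
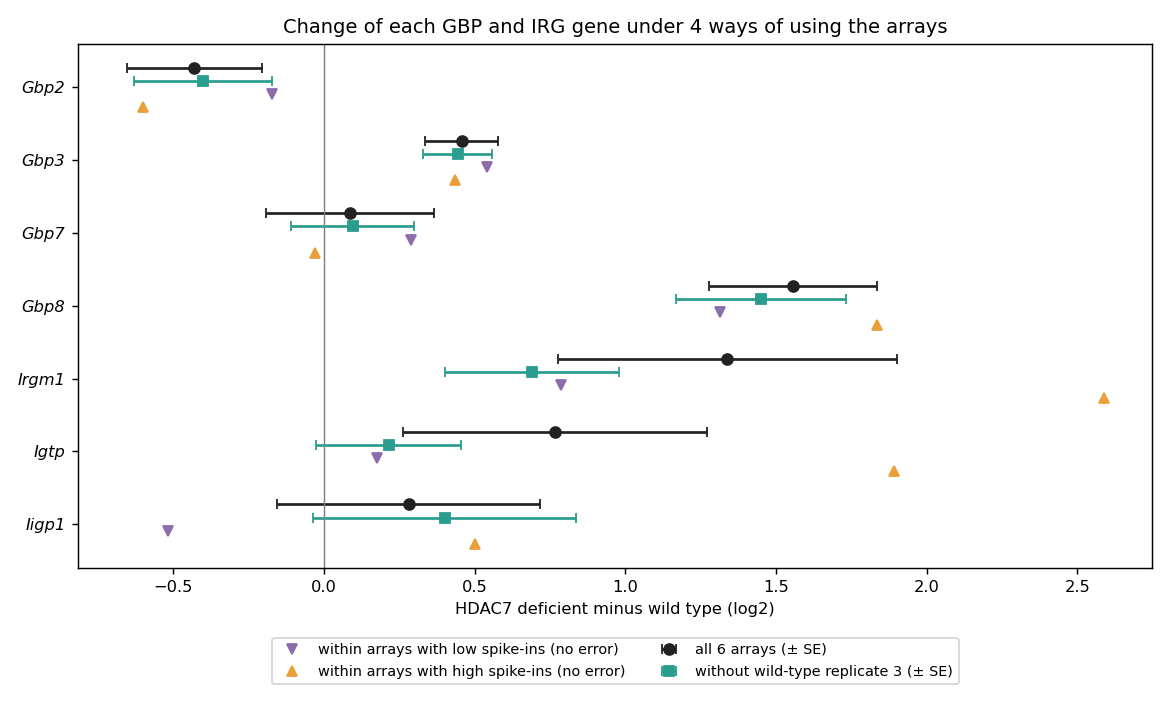
Change of each gene (HDAC7 deficient minus wild type, log2; positive means higher in HDAC7 deficient) with all 6 arrays and without wild-type replicate 3 (bars are SE), and within the arrays of low and of high spike-in signal, where 1 group has a single array and no error is given. Gbp8 lies between 1.32 and 1.83 in all 4, whereas Irgm1 runs from 0.69 to 2.59 and Iigp1 changes sign.

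As a group, 6 of the 7 members had a mean change above 0, against 48% of all genes, and the median change was 0.46, against -0.03 over all genes. Without wild-type replicate 3 these were again 6 of 7, against 43.2%, and a median of 0.40, against -0.05. Without HDAC7-deficient replicate 1 the median was 0.74. Groups did not overlap, with HDAC7 deficient higher, for 3 members (Gbp3, Gbp8 and Irgm1), against 9.45% of all genes, and lower for 1 (Gbp2). Without wild-type replicate 3 the members at an unadjusted p under 0.05 and higher were again 3, against 5.19% of all genes, and none passed the adjusted p of 0.05 in limma, nor did any other gene. With the spike-in division as a block, the limma adjusted p of Gbp3, Gbp8 and Irgm1 was 0.0947 each. Benjamini-Hochberg adjustment can give a run of ranked genes the same value, and how many genes shared this one is not given. With wild-type replicate 3 left out of that fit the 3 members had limma adjusted p-values of 0.260, 0.201 and 0.388. The first of these fits called 0 genes and the second 0.0234% of all genes, no member among them. Array weights estimated from the same 6 arrays gave weights of 8.68 to wild-type replicate 1 and 0.07 to wild-type replicate 3, and with them limma called 6 of the 7 members at an adjusted p under 0.05 (Gbp7 was not called), but also 49.4% of all genes.

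Neighbouring members differed in their changes. Gbp7, Gbp3, Gbp2b and Gbp2 follow each other in 1 cluster of the RefSeq gene table, and their changes were 0.09, 0.46, -0.59 ± 0.24 and -0.43. Gbp8, Gbp9, Gbp4, Gbp10 and Gbp6 belong to another cluster, in which Gbp8 had a change of 1.56, Gbp4 of -0.02 ± 0.23 and Gbp10 of 0.53 ± 0.34. Gbp10 read 6.85, 6.88 and 7.02 in wild type and 6.85, 8.03 and 7.47 in HDAC7 deficient, with replicates 2 and 3 above the rest as for Iigp1. Its other probe set gave 6.15, 6.62 and 6.26 against 6.51, 8.70 and 7.93, a change of 1.37 ± 0.54 (limma adjusted p over probe sets 0.353). Igtp and its neighbour Irgm2 had changes of 0.77 and 0.27 ± 0.27, or 0.21 and 0.09 without wild-type replicate 3. Gbp2b and Irgm2 were each above the highest nonspecific control on 1 of 6 arrays. The 5 members whose promoter stretch is printed above, all with the response element core, had changes of -0.43 for Gbp2 (0.27 on its other probe set), 0.09 for Gbp7, 0.46 for Gbp3, 0.77 for Igtp and 1.34 for Irgm1.

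The other interferon-inducible GTPases were taken from a list of 24 names, of which 7 were measured (Gbp2b, Gbp4, Gbp10, Irgm2, Tgtp1, Mx1 and Mx2). None passed the adjusted p of 0.05 in limma in either direction, 5 had a change above 0, and their median change was 0.37, or 0.52 without wild-type replicate 3. Mx2, a dynamin-like antiviral GTPase, read 4.99, 5.19 and 4.96 in wild type and 5.30, 6.06 and 5.52 in HDAC7 deficient, a change of 0.58 ± 0.23 without overlap, but it was above the highest nonspecific control on 1 of 6 arrays. Tgtp1, an effector IRG also called Irgb6, read 6.80, 7.70 and 5.88 against 7.60, 8.34 and 7.38, with overlap and a change of 0.98 ± 0.50, or 0.53 without wild-type replicate 3. Like Irgm1 and Igtp it was lowest on wild-type replicate 3.

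In the interferon gamma pathway all 14 measured genes of 15 listed had a change above 0, against 48% of all genes, with 0 past the adjusted p of 0.05 in limma, a median change of 0.74 and a median of 0.33 without wild-type replicate 3. At an unadjusted p under 0.05 there were 2 higher and 0 lower. Ifng, the cytokine itself, read 5.62, 5.95 and 5.96 in wild type and 6.20, 8.21 and 7.76 in HDAC7 deficient, so that replicates 2 and 3 carried most of its change of 1.55 ± 0.51 (limma adjusted p = 0.377). It was above the highest nonspecific control on those arrays and on wild-type replicate 3. Nlrc5, which activates MHC class I genes, had a change of 1.29 ± 0.47, or 0.81 without wild-type replicate 3. Ifngr2, the signalling chain of the receptor, had 0.87 ± 0.38 and the repressor gene Irf2, above the highest nonspecific control on 1 of 6 arrays, 0.75 ± 0.34. Irf1, the factor that induces GBPs, was at 0.64 ± 0.39, with 0.33 without wild-type replicate 3, -0.03 within the low spike-in arrays and 1.46 within the high ones.

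**Figure D4:**
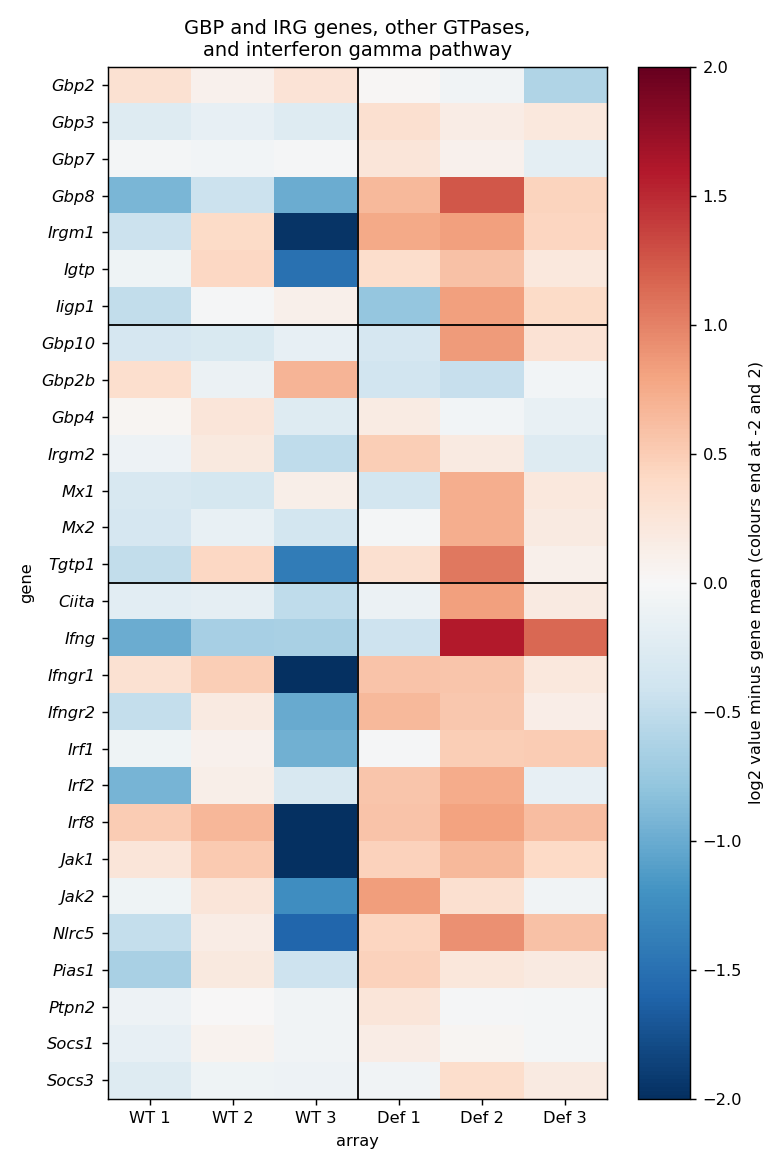
Log2 value minus the gene's mean over the 6 arrays (red above, blue below), with the 7 members on top, the 7 other interferon-inducible GTPases in the middle and the 14 interferon gamma pathway genes at the bottom. Gbp8 is blue on the 3 wild-type arrays and red on the 3 HDAC7-deficient arrays, wild-type replicate 3 is dark blue for Irgm1, Igtp and several pathway genes, and Ifng is dark red on HDAC7-deficient replicates 2 and 3.

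The type I interferon arm was measured in 9 of 9 genes, 8 of them with a change above 0 (48% over all genes, as for the counts of this kind that follow) and 0 past the adjusted p of 0.05 in limma. Its median change was 0.92, or 0.35 without wild-type replicate 3. Within the low spike-in arrays the median was 0.09, and within the high ones, where wild type is replicate 3 alone, 2.21. Usp18, an inhibitor of the receptor, had 1.29 ± 0.57, Irf7 1.11 ± 0.55, Irf9 1.16 ± 0.68 and the kinase gene Tyk2 0.92 ± 0.52, each with overlap between groups. Without wild-type replicate 3 these were 0.70, 0.68, 0.35 and 0.36. Ifnb1, which encodes interferon beta, lay between 4.92 and 5.33 on all arrays and above the highest nonspecific control on 1 of 6.

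Of 25 other interferon-stimulated genes 19 were measured, 15 with a change above 0, 0 past the adjusted p of 0.05 and a median of 0.62, or 0.23 without wild-type replicate 3. Within the low spike-in arrays their median was -0.02 and within the high ones 0.88. Ifit2, which binds viral RNA, had 1.16 ± 0.33 without overlap, but was above the highest nonspecific control on 4 of 6 arrays. The RNA sensor Ifih1, above it on 5 of 6, had 0.62 ± 0.29. Xaf1 had 0.77 ± 0.40 and the antiviral synthetase Oas3 0.60 ± 0.33 without overlap. Oasl2 had the order seen in Iigp1, with 6.15, 6.68 and 6.89 against 5.72, 8.96 and 8.74. It was above the highest nonspecific control on 4 of 6 arrays, and was picked out after its values were seen.

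IRGs and GBPs need part of the autophagy machinery to find their target vacuoles. Of 12 listed genes of this machinery 10 were measured, all with a change above 0, with 0 past the adjusted p of 0.05 and 1 at an unadjusted p under 0.05. The median was 0.68, or 0.25 without wild-type replicate 3. Map1lc3a, which encodes an LC3 protein, had 1.13 ± 0.44, Atg12 0.66 ± 0.32, Gabarapl2 0.69 ± 0.42 and Atg16l1 0.74 ± 0.46. Without wild-type replicate 3 these were 0.75, 0.38, 0.28 and 0.25, and over the bright genes described above the median was 0.56 with that array and 0.06 without it. Of 8 caspase and inflammasome genes that act after GBPs 6 were measured, 5 with a change above 0 and 0 past the adjusted p of 0.05, with a median of 0.42, or 0.22 without wild-type replicate 3. Casp4, whose product senses bacterial lipopolysaccharide that GBPs expose, had 0.75 ± 0.40 without overlap, Il1b 0.48 ± 0.30, Pycard 0.93 ± 0.83 and Nlrp3 0.29 ± 0.23. Without wild-type replicate 3 these were 0.35, 0.28, -0.09 and 0.38, so that the sign of Pycard turned.

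Markers of other cells were also read on these arrays. The mean log2 level of 10 natural killer and innate lymphoid markers ran from 6.94 to 8.69 in wild type and from 8.36 to 8.76 in HDAC7 deficient, with 8 of 10 above 0 in change and a median of 0.73, or 0.09 without wild-type replicate 3. Of 8 T cell markers 7 were measured, at 6.74 to 7.51 against 7.41 to 7.89. Of these, 6 had a change above 0, with a median of 0.55, or 0.38 without wild-type replicate 3. Of 10 macrophage and monocyte markers 9 were measured, at 7.32 to 7.54 against 7.69 to 8.12. Only 6 of these 9 had a change above 0, with a median of 0.22 with or without wild-type replicate 3. The 10 neutrophil markers lay at 8.98 to 10.59 against 10.43 to 11.01, with 8 of 10 above 0 in change. Their median was 0.96, or 0.29 without wild-type replicate 3. Of 10 plasmacytoid dendritic cell markers 7 were measured, all with a change above 0, at 6.99 to 9.35 against 9.37 to 9.95, with a median change of 1.33, or 0.40 without wild-type replicate 3. None of these markers passed the adjusted p of 0.05 in limma. Ncr1 of natural killer cells read between 7.37 and 9.22, above the highest nonspecific control of every array. Other markers, such as Trat1 (4.71 to 5.56) and Fcgr1 (4.76 to 5.89), were under that control on some arrays. The part of other cells in the values of the GTPases was not tested.

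With genes known only by a clone symbol set aside, the 5 with the profile most like the mean profile of the 7 members were Tango2, Skiv2l, Zfp335, Eya1 and Mia3. Likeness was the root mean square difference after each gene was centred on its own mean, and it lay between 0.023 and 0.045 log2 units for these 5. The mean profile was lowest on wild-type replicate 3 (-0.62) and highest on HDAC7-deficient replicate 2 (0.52). The members themselves were farther from their own mean, at 0.24 for Gbp3 and 0.34 for Gbp7 at the near end and at 0.58 for Gbp2 and 0.64 for Irgm1 at the far end. No interferon-inducible GTPase was among the 5.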

How the data were processed

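For each of the 6 Affymetrix arrays the authors deposited log2 values, 1 per probe set; per the labels' protocols, RNA was amplified by whole transcriptome amplification and labelled with biotin. How they were normalized is not stated in the labels, and their range gave the log2 scale. After 104 controls were set aside, 28898 of 45037 probe sets had 1 symbol, 551 several and 15588 none; symbols were updated by Entrez number through a RefSeq table of GRCm38.p6, which matched 28689. Groups were compared over all 17097 genes with limma 3.58.1 in R 4.3.3 (moderated variances with an intensity trend, two-sided, Benjamini-Hochberg), with no filter on dim genes. The fit was tested on simulated data. The number of arrays limits the precision. The fits were repeated with 1 array removed at a time, with blocks for replicate number or spike-in division, and with other scalings, dim-gene filters, variance models, array weights and probe sets.

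The members, the 6 gene lists, the 6 marker lists and the tests were chosen with earlier results of these data known. Named genes were the members, up to 4 per list by smallest p, the 5 most like profiles (clone symbols set aside), and Hdac7. Others were named to complete a comparison. Figures were drawn with matplotlib 3.10.9.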

Additional observations from a re-analysis of the deposited data

Results flagged for a closer look

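Within the arrays of low and of high spike-in signal, every HDAC7-deficient array lay on 1 side of all wild-type arrays of its division, and on opposite sides in the 2 divisions, for 3 probe sets of the members. For Iigp1 on 1419043_PM_a_at, HDAC7-deficient replicate 1 lay below wild-type replicates 1 and 2 by a difference of -0.52, and HDAC7-deficient replicates 2 and 3 lay above wild-type replicate 3 by 0.50. On 1419042_PM_at these were -0.19 and 0.43. For the second Gbp7 probe set (1434380_PM_at) they were 1.04 and -0.39. The main Gbp7 probe set also differed in sign (0.29 and -0.03), but HDAC7-deficient replicates 2 and 3 lay on both sides of wild-type replicate 3. The difference between the divisions was not tested. No share over all probe sets is given for this pattern, so the count describes these 3 probe sets alone.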

How the results depend on the processing

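With array weights 8452 genes (49.4%) were called in either direction at an adjusted p under 0.05 in limma. At an unadjusted p under 0.05, 5 members were higher, and the share of all genes at that threshold is not given. Weights came from limma's gene-by-gene method, since its default did not converge. Array weights also called Gbp2, Gbp3, Gbp8, Igtp, Irgm1 and Iigp1. The replicate number as a block called 1 gene (Hspa1b) and no member. Same-numbered arrays correlated in their deviations from the group means at 0.10, 0.21 and 0.48 (the first at 0.096), not all above the 0.1 set for pairing, and not every array correlated best with its own number. The spike-in division as a block without wild-type replicate 3 called 4 genes and no member. Without the dimmest 50% of genes only 4 members stayed in the fit, and 1 was higher without overlap and 1 at an unadjusted p under 0.05. These counts, too, come without a share of all genes.

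The sign of Gbp7 turned with quantile normalization (-0.43) and without HDAC7-deficient replicate 1 (-0.011). That of Iigp1 turned with the spike-in block (-0.0079), when that fit also left out wild-type replicate 3 (-0.52), and without HDAC7-deficient replicate 2 (-0.056). Gbp2 was at 0.27 on its other probe set. The cause was not tested. Leaving out single arrays gave ranges of 0 to 0 genes called and of 3 to 4 members higher without overlap. Members higher at an unadjusted p under 0.05 ranged from 2 to 4, and the median from 0.40 to 0.74. Without wild-type replicate 3, 11.8% of all genes were higher without overlap and 5.19% at an unadjusted p under 0.05. Shares for the other arrays are not given. The ranges were 1.32 to 1.73 for Gbp8, 0.41 to 0.50 for Gbp3, 0.69 to 1.86 for Irgm1, 0.21 to 1.17 for Igtp, -0.55 to -0.24 for Gbp2, -0.011 to 0.20 for Gbp7 and -0.056 to 0.74 for Iigp1. The values rest on 6 arrays. Gbp3 on all of them, Gbp2 on 4 and Gbp8 on 2 had signal under the highest nonspecific control of the array. So did Irgm1 on wild-type replicate 3 and the main probe set of Iigp1 on HDAC7-deficient replicate 1.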
